A study of Mus musculus with 4 samples.

Results

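The genes described here encode the proteasome, the protease that degrades ubiquitin-tagged proteins, with the factors that activate, inhibit or assemble it. They were chosen by symbol: Psma, Psmb, Psmc, Psmd, Psme, Psmf or Psmg followed by a digit, leaving out the interferon-inducible catalytic subunits Psmb8, Psmb9 and Psmb10. This gave 47 of the 24452 listed genes, of which 43 were among the 10486 genes with enough reads to be tested. RNA sequencing had been done on Tregs, the Foxp3-bearing CD4 lymphocytes that hold immune responses in check, from the liver of young mice. The groups were Altre-WT, with 2 libraries, and Altre-KO, with 2 libraries, in which the long non-coding RNA Altre is knocked out; the comparison asks which transcripts differ when a Treg lacks it. The labels give neither the design of the knockout allele nor the age in figures, and whether libraries of 1 genotype stem from different mice is not recorded there. P-values therefore measure only the spread between these libraries, which may be technical. Altre itself was not analysed here, and the genotypes are those of the labels.

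The proteasome core is a barrel of stacked rings. The outer rings, made of alpha subunits (Psma), gate the entrance, and the inner rings, made of beta subunits (Psmb), hold the catalytic sites. A regulatory particle caps the barrel. Its base (Psmc ATPases with Psmd1, Psmd2 and Psmd4) binds, unfolds and threads substrates. Its lid (Psmd3, Psmd6 to Psmd8 and Psmd11 to Psmd14) removes ubiquitin. In lymphocytes, the interferon-inducible catalytic subunits replace the constitutive ones in many barrels and the activator of Psme1 and Psme2 favours the release of antigenic peptides. Every alpha and beta subunit position is filled in equal number in a barrel, so the complex itself needs matched amounts of its parts.

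Levels are given in CPM, reads scaled so that the listed genes of each library sum to the same total, and ranks by CPM are not corrected for transcript length. Reads on listed genes numbered 1828771 and 2378953 in Altre-WT replicates 1 and 2 and 3266126 and 2361926 in Altre-KO replicates 1 and 2, so 1 read was worth 0.306 to 0.547 CPM. These were 18.8%, 20.6%, 32.8% and 21.5% of all reads, in the same order, which sets Altre-KO replicate 1 apart. The 7 T cell and Treg markers summed to between 3107 and 3197 CPM in every library, and Cd4 lay between 527 and 547 CPM. Foxp3 was at 160.4, 140.45, 79.5 and 162 CPM, lowest in the same Altre-KO replicate 1. Single markers moved within the steady sum. Cd3e was also lowest in Altre-KO replicate 1, at 53.9 CPM against 68.5 to 90.8 CPM elsewhere. So was Il2ra, at 164 CPM against 190 to 213 CPM, and by little Ikzf2, at 1226 CPM against 1236 to 1272 CPM. Cd3g was highest there, at 659 CPM against 512 to 607 CPM. Of the other cell types' marker lists, the 6 hepatocyte markers summed to at most 2.18 CPM, with Alb at 0 in every library. The 5 B and plasma cell markers summed to 144 to 280 CPM, the 7 myeloid markers to 128 to 242 CPM and the 6 endothelial and stellate markers to 175 to 221 CPM. Nearly all of the endothelial and stellate sum was Pecam1, at 172.24 to 215.22 CPM. No other marker of that list was above 6.02 CPM in any library. Most of the B and plasma cell sum was Jchain, at 105.53 to 248.85 CPM. The libraries come from many cells at once, so fewer cells of a type and less RNA per cell cannot be told apart.

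Proteasome transcripts were detected in all 4 libraries and none of the 43 tested genes passed the test for a genotype difference. Together the 47 genes summed to 3853 and 3722 CPM in Altre-WT and to 4497 and 3427 CPM in Altre-KO (3788 ± 92.55 against 3962 ± 756, SD, n = 2 per genotype). The sums overlapped between genotypes, because the highest and the lowest library were the 2 Altre-KO libraries. With limma, 0 of 43 passed an adjusted p of 0.05 and the lowest adjusted p was 0.999; limma-voom on estimated reads also called 0. At an unadjusted p of 0.05, 1 member lay below it, Psmd6, on the higher side, where 1.44% of all tested genes lay. Over all 10486 tested genes, 4 passed the adjusted threshold, or 0.0381%, each lower in Altre-KO. Of the 43, 27 had a log2 fold change (Altre-KO minus Altre-WT, on the log2(CPM + 1) scale) above 0 and 16 below, and the median was 0.05, against -0.01 over all tested genes. The values ran from -0.50 for Psmg3 to 0.55 for Psmd6.

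**Figure D1:**
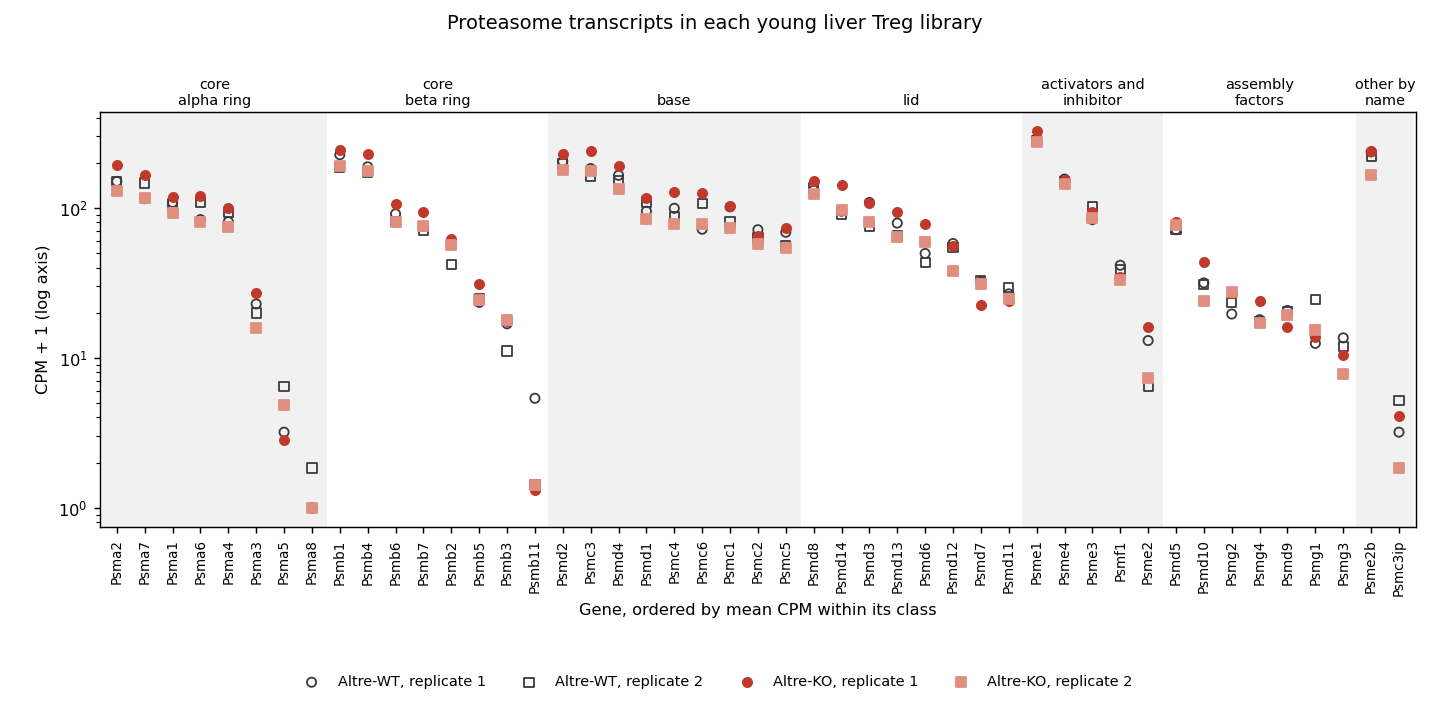
CPM plus 1 (log axis) of the 47 proteasome genes in each of the 4 libraries, grouped by class and ordered by mean CPM. Open symbols are the 2 Altre-WT libraries and filled symbols the 2 Altre-KO libraries. Altre-KO replicate 1 is the top point for all 6 tested alpha genes and 8 of 9 base genes, and Psma5, Psma8 and Psmb11 lie below the rest of the core.

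The intervals give the range of differences that the fit allows. With 2 libraries per genotype, which may be technical, they do not bound the difference between mice. For 37 of the 43 genes the whole 95% limma interval lay within a 2-fold change in either direction, and for 23 it lay within 1.5-fold. The 6 with wider reach were Psmb3, Psmd6, Psme2, Psmg1, Psmg2 and Psmg3. The SE of the log2 fold change ran from 0.15 for Psme1, the member of highest CPM, to 0.50 for Psme2. With 20.8 prior degrees of freedom, these SEs owe more to the common mean-variance trend than to a gene's own 4 values. A gene's own SD within genotypes, on the same scale, was 0.45 for Psmc6 and 0.03 for Psmd5. Their SEs were 0.23 and 0.20.

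**Figure D2:**
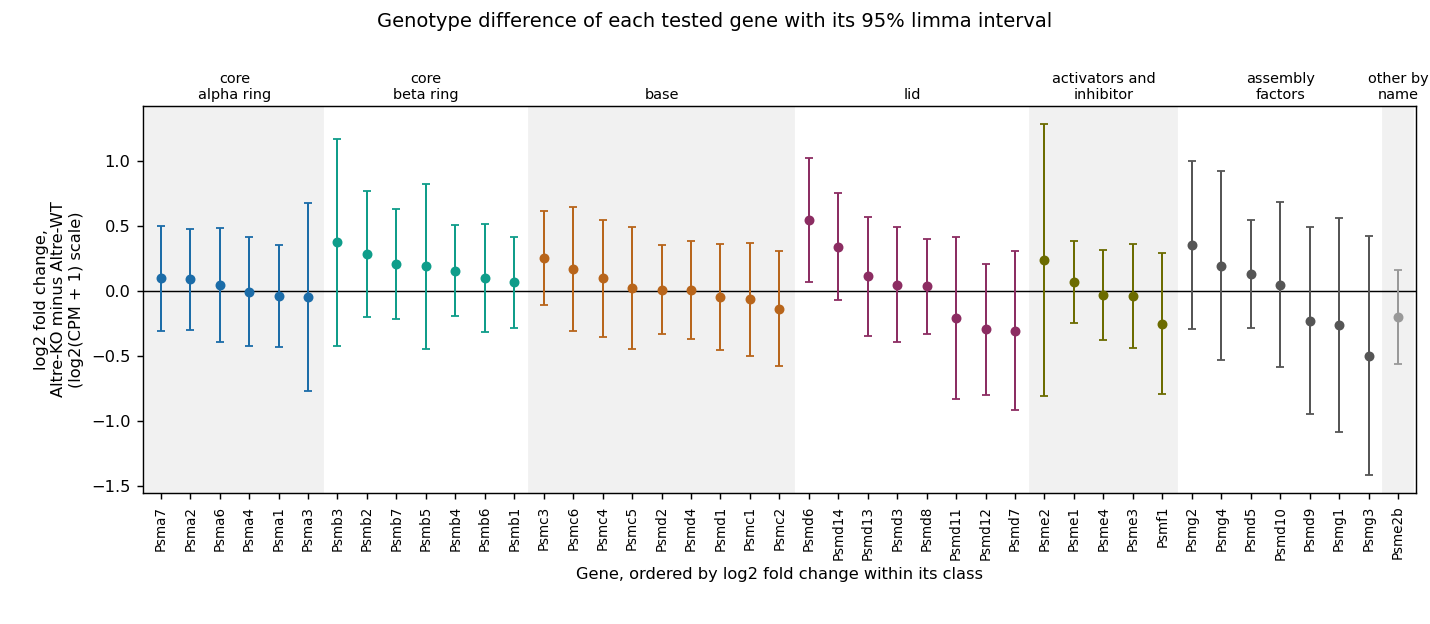
Log2 fold change (Altre-KO minus Altre-WT, log2(CPM + 1) scale) of each of the 43 tested proteasome genes by class, with bars for the 95% limma interval from 2 libraries per genotype. All intervals but that of Psmd6 (0.07 to 1.02) include 0, and all 7 beta-ring points lie above 0.

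In the alpha ring, which gates the barrel, the 6 tested genes sat near 0, with log2 fold changes from -0.05 to 0.10 and a median of 0.02. All 8 alpha genes summed to 558 and 623 CPM in Altre-WT and 723 and 508 CPM in Altre-KO. The highest CPM of the ring was that of Psma2, at 149 and 148 CPM in Altre-WT and 194 and 129.55 CPM in Altre-KO. Psma7, with the largest value of the ring, was at 114 and 145 CPM in Altre-WT and 166 and 115 CPM in Altre-KO (log2 fold change 0.10, 95% interval -0.30 to 0.50). In all 6 genes the Altre-WT values overlapped the Altre-KO values, and Altre-KO replicate 1 was the highest library. Psma8, the alpha subunit of the testis, was detected in Altre-WT replicate 2 alone, by 2 reads; the limit that a count of 0 allows was 0.919 to 1.64 CPM per library. Psma5 was low and not tested, at 2.19 and 5.46 CPM in Altre-WT and 1.84 and 3.81 CPM in Altre-KO.

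The beta ring had the highest class median, 0.19. All 7 tested beta genes had values above 0, between 0.07 and 0.38, though none passed the test. Without Altre-WT replicate 2 the median was 0.07, below those of the alpha ring (0.09) and the assembly factors (0.14), with 6 of 7 above 0. Without Altre-KO replicate 1 it was 0.01, with 4 of 7 above 0. All 8 beta genes summed to 675 and 583 CPM in Altre-WT and 776 and 616 CPM in Altre-KO (629 ± 65.6 against 696 ± 113, SD, n = 2 per genotype), and the genotypes overlapped. In 3 of the 7 (Psmb2, Psmb3 and Psmb7) both Altre-KO libraries lay above both Altre-WT libraries. For Psmb2 the closest values nearly met, at 55.78 CPM in Altre-WT replicate 1 and 55.89 CPM in Altre-KO replicate 2. For Psmb7 the same libraries were at 74.37 and 74.51 CPM. Over all 43 tested proteasome genes, both Altre-KO libraries lay above both Altre-WT libraries for 7, or 16.3%, against 14.7% of all tested genes. The opposite pattern, both Altre-KO libraries below both Altre-WT libraries, held for 5 of the 43 against 16.1% of all tested genes, and 31 overlapped. The members' shares in both directions were thus near or below the background.

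The constitutive catalytic subunits are Psmb6 (caspase-like), Psmb7 (trypsin-like) and Psmb5 (chymotrypsin-like). Psmb6 was at 90.2 and 80.3 CPM in Altre-WT and 105 and 79.2 CPM in Altre-KO. Psmb7 was at 74.4 and 69.8 CPM in Altre-WT and 93.4 and 74.5 CPM in Altre-KO, where the closest values of the genotypes nearly meet. Psmb5 was at 22.4 and 24.0 CPM in Altre-WT and 30.3 and 23.3 CPM in Altre-KO. Their log2 fold changes were 0.10, 0.21 and 0.19, with 95% limma intervals of -0.32 to 0.51, -0.21 to 0.63 and -0.44 to 0.82. Psmb1, with the highest CPM of the ring, was at 225 and 185 CPM in Altre-WT and 242 and 189.7 CPM in Altre-KO. Psmb2 had the smallest p of the ring (limma unadjusted p = 0.241), with 55.8 and 40.8 CPM in Altre-WT and 60.6 and 55.9 CPM in Altre-KO. Psmb11, the subunit of the thymic proteasome, was at 4.37 CPM in Altre-WT replicate 1, from 8 reads, and rested on 1 read in each of the other 3 libraries.

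The 3 interferon-inducible partners, left out of the set by its rule, were set beside these. Psmb8, which replaces Psmb5, was at 486 and 439 CPM in Altre-WT and 607 and 440.3 CPM in Altre-KO. Psmb9, which replaces Psmb6, was at 145 and 101 CPM in Altre-WT and 143 and 99.5 CPM in Altre-KO. Psmb10, which replaces Psmb7, was at 169 and 161 CPM in Altre-WT and 214 and 157 CPM in Altre-KO. With limma 0 of the 3 passed, adjusted or at an unadjusted p of 0.05, with log2 fold changes of 0.16, -0.03 and 0.15. Per kilobase of the longest annotated transcript, Psmb8 stood at 8.64 to 10.2 times Psmb5 in the 4 libraries, Psmb10 at 4.57 to 5.01 times Psmb7 and Psmb9 at 0.421 to 0.54 times Psmb6. The genotypes overlapped for the Psmb8 to Psmb5 and Psmb9 to Psmb6 ratios. For Psmb10 to Psmb7 the ratios were 4.94 and 5.01 in Altre-WT and 4.97 and 4.57 in Altre-KO, which overlap too. Psmb5 has a 98.9% identical pseudogene, described further on, so its level and the Psmb8 ratio are uncertain. Length also matters: with the longest coding transcript the same ratios were 10.1 to 11.96, 1.86 to 2.04 and 0.742 to 0.952.

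The base had the largest summed CPM of the classes, 1052 and 1005 in Altre-WT and 1262 and 902 in Altre-KO. Its 9 genes had a median log2 fold change of 0.01, from -0.14 to 0.26, 6 above 0 and 3 below, and all 9 overlapped between genotypes. Psmd2, a scaffold that docks ubiquitin receptors, had the highest CPM, at 203 and 195 CPM in Altre-WT and 227 and 178 CPM in Altre-KO. The ATPase Psmc3 had the smallest p of the class (limma unadjusted p = 0.159), with 182 and 161 CPM in Altre-WT and 239.7 and 174 CPM in Altre-KO. The ATPase Psmc6 followed, with 71.1 and 106 CPM in Altre-WT and 125 and 76.6 CPM in Altre-KO, so the 2 libraries of each genotype differed by more than the genotype means (88.5 and 100.8 CPM). The ATPase Psmc5, lowest of the class, was at 67.8 and 54.65 CPM in Altre-WT and 72.6 and 52.9 CPM in Altre-KO.

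The lid's members spread widely, with log2 fold changes from -0.30 to 0.55 and a median of 0.04; 5 of its 8 genes lay above 0 and 3 below. Their CPM summed to 573 and 519 in Altre-WT and 667 and 511 in Altre-KO. Psmd6, a structural lid subunit, was at 48.7 and 42.5 CPM in Altre-WT and 76.5 and 58.4 CPM in Altre-KO (45.6 ± 4.39 against 67.5 ± 12.8, SD, n = 2 per genotype). Both Altre-KO libraries lay above both Altre-WT libraries. Its log2 fold change was 0.55 (SE 0.23, 95% interval 0.07 to 1.02), with a limma unadjusted p = 0.0258 and an adjusted p = 0.999. It was the single member under an unadjusted p of 0.05. Psmd14, the deubiquitinase of the lid, was at 94.05 and 89.95 CPM in Altre-WT and 142 and 96.1 CPM in Altre-KO. Its log2 fold change was 0.34 (SE 0.20, limma unadjusted p = 0.0997), and it was 0.06 when Altre-KO replicate 1 was left out. Psmd6 kept a value of 0.36 without that library. Psmd8, the lid gene of highest CPM, was at 130.1 and 135 CPM in Altre-WT and 149 and 124 CPM in Altre-KO. The scaffold subunit Psmd11, the lid gene of lowest CPM, was at 25.7 and 28.6 CPM in Altre-WT and 23.0 and 23.7 CPM in Altre-KO, with no overlap (log2 fold change -0.21, 95% interval -0.83 to 0.41). Psmd6 lies on chromosome 14 (14112174 to 14120984, minus strand) and Psmd14 on chromosome 2 (61711694 to 61800376, plus strand) in GRCm38, both protein-coding in GENCODE M21.

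The activators cap the barrel in place of the regulatory particle. Psme1, the alpha chain of the interferon-inducible activator, had the highest CPM of all 47 genes, at 288 and 282 CPM in Altre-WT and 324 and 276 CPM in Altre-KO. Psme3, which forms the nuclear activator, was at 82.6 and 101 CPM in Altre-WT and 93.4 and 84.7 CPM in Altre-KO, and Psme4, the large single-chain activator, lay between 144 and 155 CPM in the 4 libraries. Psmf1, the inhibitor that also binds the barrel, was at 40.5 and 37.8 CPM in Altre-WT and 33.4 and 32.2 CPM in Altre-KO, with both Altre-KO values lower (log2 fold change -0.25, 95% interval -0.79 to 0.29, limma unadjusted p = 0.349). The 5 genes together, with Psme2 but without its copy Psme2b, had a median of -0.03. Their summed CPM was 577 and 575 in Altre-WT and 619 and 543 in Altre-KO.

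Assembly factors had the lowest summed CPM of the named classes, 180.45 and 193 CPM in Altre-WT and 208 and 181 CPM in Altre-KO over 7 genes. Psmg1 to Psmg4 chaperone the alpha ring, and Psmd5, Psmd9 and Psmd10 chaperone the base. The class median was 0.05, with 4 values above 0 and 3 below. Psmd5 had the highest CPM and varied little within genotypes, at 70.5 and 71.0 CPM in Altre-WT and 79.0 and 76.2 CPM in Altre-KO (log2 fold change 0.13). Psmg2 was at 18.6 and 22.3 CPM in Altre-WT and 26.02 and 26.7 CPM in Altre-KO (log2 fold change 0.36, 95% interval -0.29 to 1.00). Psmg3, lowest in CPM, was at 12.6 and 10.9 CPM in Altre-WT and 9.49 and 6.77 CPM in Altre-KO (log2 fold change -0.50, 95% interval -1.42 to 0.42). For both the genotypes did not overlap, in opposite directions, and their intervals included 0.

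The widest gap in the members' summed CPM lay between the 2 Altre-KO libraries. Altre-KO replicate 1 held the highest value of 30 of the 43 genes, or 69.8%, where it held the highest of 30.7% of all tested genes. Altre-KO replicate 2 held the lowest value of 23, or 53.5%, against 27.7% of all tested genes. Relative to each gene's mean over the 4 libraries, the median log2 deviation of the members was 0.03 and -0.05 in Altre-WT and 0.21 and -0.15 in Altre-KO. Over all tested genes the medians were between -0.02 and 0.03. By class, Altre-KO replicate 1 was highest in 6 of 6 alpha, 6 of 7 beta, 8 of 9 base, 4 of 8 lid, 2 of 5 activator and 3 of 7 assembly genes. Its median deviation was 0.31, 0.25, 0.24 and 0.20 in the alpha ring, the beta ring, the base and the lid. It was 0.05 in the activators with the inhibitor and 0.09 in the assembly factors. The activator class leaves out Psme2b, a near-identical copy of Psme2 described further on. Psme2b was highest in Altre-KO replicate 1 too, with a deviation of 0.16, and stood at -0.36 in Altre-KO replicate 2. The same library had the largest share of reads on listed genes (32.8%) and the lowest Foxp3, and the part of either in this pattern was not tested. Altre-KO replicate 2 stood apart in abundant noncoding RNA, with Rn45s at 37757 CPM against 13699 to 16726 CPM in the other 3 libraries, and in Lars2, at 2542 CPM against 189 to 283 CPM. With these, Rpph1 and Rmrp left out of the totals, a setting applied to this pattern after seeing the data, Altre-KO replicate 1 was highest for 30 members and Altre-KO replicate 2 lowest for 19 (44.2%, against 24.2% of all tested genes). The median deviations in Altre-KO were then 0.21 and -0.13. No test was made of the libraries against each other, since each is a single library.

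**Figure D3:**
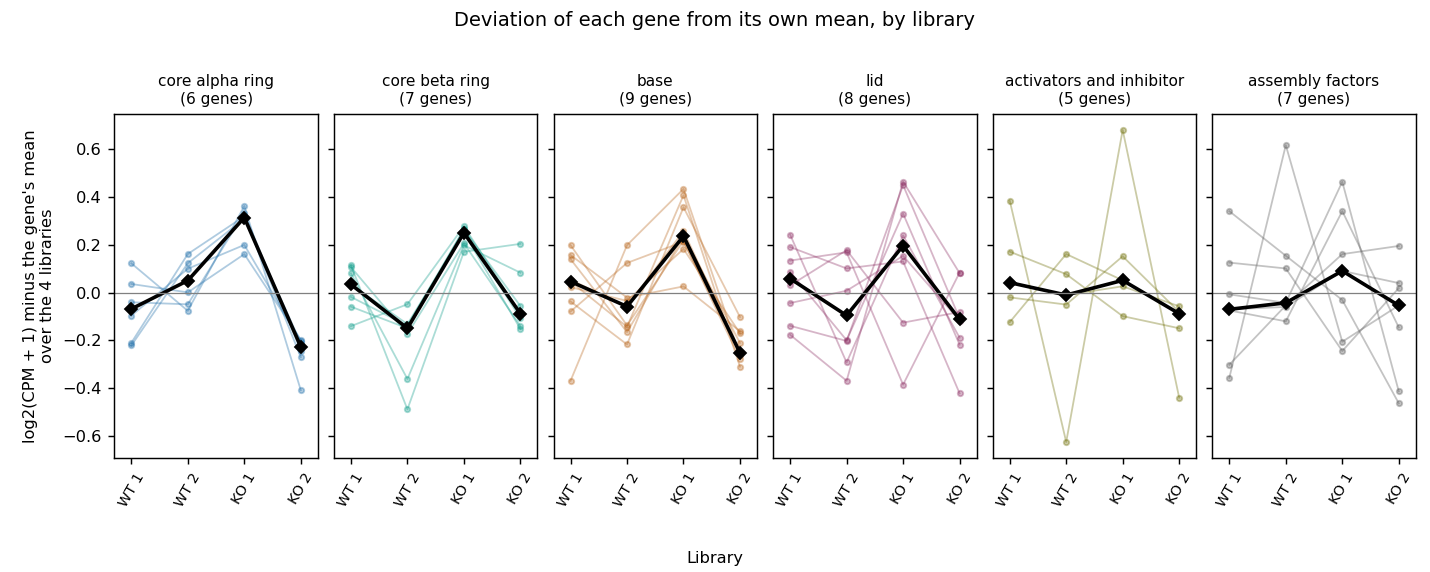
Deviation of log2(CPM + 1) from each gene's own mean over the 4 libraries (vertical axis), by library (horizontal axis) and class. Thin lines are single genes and the black line with diamonds is the class median, which peaks in Altre-KO replicate 1 in the alpha ring (0.31), beta ring (0.25), base (0.24) and lid (0.20) and drops below 0 in Altre-KO replicate 2.

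The direction of the members' median accordingly depended on which Altre-KO library was used. Without Altre-KO replicate 1, 9 of the 43 values lay above 0 and 34 below, with a median of -0.16. Without Altre-KO replicate 2, 35 lay above 0 and 8 below, with a median of 0.26, and the lowest limma adjusted p was 0.417, for Psmd14. The class medians without Altre-KO replicate 1 were -0.21 for the alpha ring, 0.01 for the beta ring, -0.23 for the base and -0.13 for the lid. Without Altre-KO replicate 2 they were 0.34, 0.34, 0.25 and 0.22. In these fits Altre-KO is a single library, which is assumed to vary as the Altre-WT libraries do. The count of members past the test stayed at 0 either way.

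The classes divided the total in much the same way in every library. In mean over the 4 libraries, the base took 27.2% of the summed CPM of the 47 genes (26.3% to 28.1%). The beta ring took 17.1% (15.7% to 18.0%), the alpha ring 15.5% (14.5% to 16.7%), the activators with the inhibitor 15.0% (13.8% to 15.8%) and the lid 14.6% (13.9% to 14.9%). The assembly factors took 4.95% (4.63% to 5.29%). Psme2b, the copy of Psme2, and Psmc3ip sit outside these classes and took 5.61% (4.85% to 6.17%). Nearly all of that was Psme2b, with a mean of 215 CPM against 2.6 CPM for Psmc3ip. The rank of the activators against the rings and the lid therefore depends on where Psme2b is counted. The activators' share was lowest in Altre-KO replicate 1, at 13.8%, where the base had its highest share. Corrected for transcript length, the base (21.4%) and the beta ring (21.4%) were level.

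**Figure D4:**
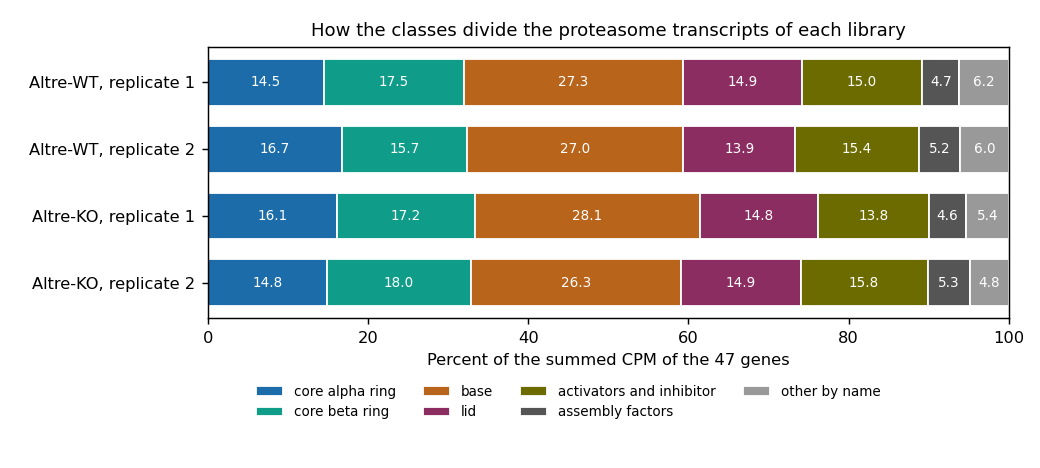
Percent of the summed CPM of the 47 genes (horizontal axis) taken by each class in each of the 4 libraries. The base is the widest segment in all 4, at 26.3% to 28.1%, and the order of the other segments shifts by a few percentage points between libraries of the same genotype.

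Although barrel subunits are needed in equal number, their transcripts were listed at very unequal levels. Per kilobase of the longest annotated transcript, the mean of the 4 libraries was 161 CPM for Psmb4, 107 for Psmb1 and 93.2 for Psma6. It was 9.84 for Psmb3, 7.17 for Psma3 and 2.68 for Psma5. Sequence copies elsewhere in the genome bear on how reads can be assigned, so each longest coding transcript was cut into 50-base windows and searched in the transcripts of all other genes. Of the 47 genes 22 had no repeated window. In 5 genes more than 50 percent of windows were repeated: Psme2b (69.3%), Psme2 (59.3%), Psmb5 (57.1%), Psmb3 (55.8%) and Psma5 (55.4%). The 3 constitutive barrel genes among them had 2.68 to 27.8 CPM per kilobase (median 9.84), and the other 11 had 7.17 to 161 (median 87.8). Psma3, the lowest of those 11, is not free of copies. Only 22.0% of its windows were repeated, but its processed pseudogene Gm13835 is 100% identical over 662 aligned bases. Psmb3, Psma3, Psma6 and Psmb4 were named after their values were seen. A copy at least 90 percent identical over at least 50 percent of the coding sequence was found for 16 genes. There were 33 such pairs of a gene and a copy, and Psmb3 alone had 7. Psme2 and Psme2b count as copies of each other, and the pseudogene Gm7928 counts for both. With the longest coding transcript, Psmb3 rises to 19.4 CPM per kilobase. How the authors' counting treated reads that match several places is not given in the sources used here, and its part in these levels was not tested.

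**Figure D5:**
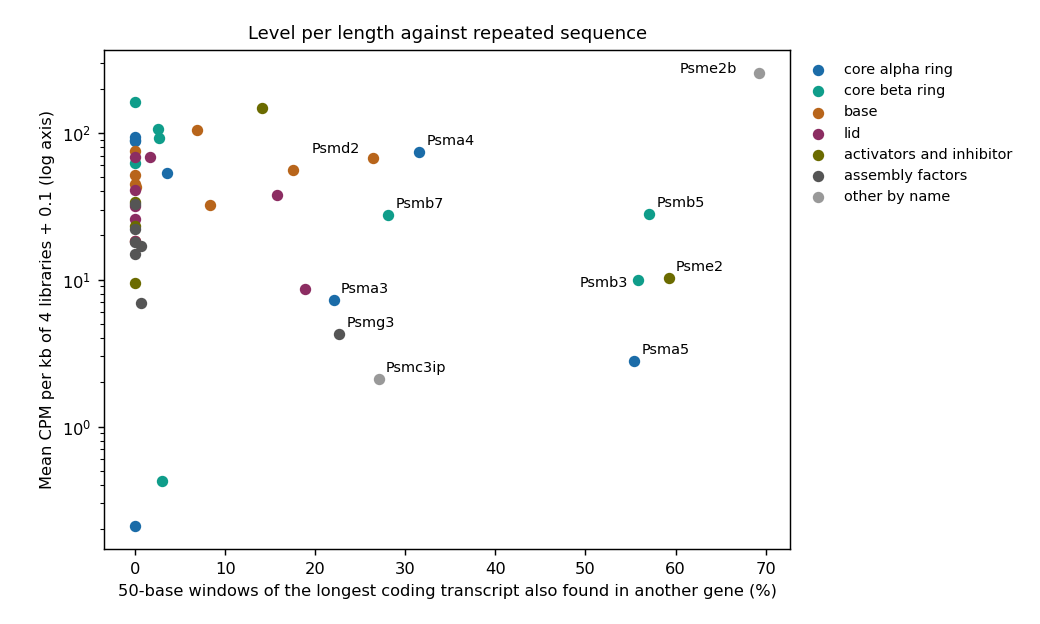
Mean CPM per kilobase of the longest annotated transcript over the 4 libraries plus 0.1 (log axis) against the percent of 50-base windows of the longest coding transcript also found in another gene, for the 47 proteasome genes by class. The alpha and beta genes at the right, Psma5, Psmb3 and Psmb5, lie at 2.68 to 27.8, while Psme2b, a single-exon copy, lies at the top right (257).

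The beta chain of the interferon-inducible activator is listed under a pair of near-identical genes. Psme2, its gene on chromosome 14 (55587441 to 55591113, minus strand), was at 12.03 and 5.46 CPM in Altre-WT and 15.0 and 6.35 CPM in Altre-KO. Psme2b, a protein-coding copy on chromosome 11 (48945354 to 48946190, minus strand), was at 235.5 and 220.4 CPM in Altre-WT and 238 and 165 CPM in Altre-KO. The log2 fold changes were 0.24 for Psme2 and -0.20 for Psme2b, and both overlapped between genotypes. Neither direction held over the libraries: Psme2 was at -0.26 without Altre-WT replicate 2, -0.32 without Altre-KO replicate 1 and 0.80 without Altre-KO replicate 2. Psme2b was at -0.46 without Altre-KO replicate 1 and 0.07 without Altre-KO replicate 2. Psme2 took 2.42% to 5.92% of the pair's CPM. The copy is 99.3% identical over the 717 coding bases of Psme2. The pair's sum, 248 and 226 CPM in Altre-WT and 253 and 172 CPM in Altre-KO, was highest in Altre-KO replicate 1 and lowest in replicate 2. Per kilobase of the longest annotated transcript, the alpha chain Psme1 stood at 0.515 and 0.538 times Psme2b in Altre-WT and at 0.573 and 0.703 times in Altre-KO. Both Altre-KO ratios were the higher, which was not tested. With the longest coding transcript, a length chosen after seeing the data, these were 0.919, 0.962, 1.02 and 1.25. Against Psme2 the ratio ran from 10.5 to 24.985 (18.7 to 44.6 with the coding transcript), and the genotypes overlapped. Of the 47 genes Psme2b alone had fractional reads (430.7, 524, 779 and 390.5 in the 4 libraries), and those of the other 46 were whole within 0.05 of a read. Reads of the pair cannot be told apart with certainty, so both values are uncertain. The stretches below, bases 484 to 543 of the Psme2 coding sequence and the matching part of the copy, from GENCODE M21, show how little separates the pair; capitals mark the bases at which they differ.
Psme2: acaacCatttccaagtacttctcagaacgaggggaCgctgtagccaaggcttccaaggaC
Psme2b: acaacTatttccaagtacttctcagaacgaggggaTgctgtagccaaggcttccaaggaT

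Psma5 and Psmb5 have processed pseudogenes of the same kind. Gm8394 on chromosome 10 is 98.9% identical over 723 aligned bases to Psma5, and Gm3375 on chromosome 7 is 98.9% identical over 793 aligned bases to Psmb5. Neither pseudogene's symbol is among the listed genes, so no level could be read for them. The first pair shows bases 19 to 78 of the Psma5 coding sequence and the second bases 263 to 322 of the Psmb5 coding sequence, each with its pseudogene, again with differing bases in capitals.
Psma5: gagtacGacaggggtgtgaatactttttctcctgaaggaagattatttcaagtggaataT
Gm8394: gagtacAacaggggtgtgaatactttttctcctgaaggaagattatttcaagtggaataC
Psmb5: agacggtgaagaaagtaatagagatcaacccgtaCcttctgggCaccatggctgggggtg
Gm3375: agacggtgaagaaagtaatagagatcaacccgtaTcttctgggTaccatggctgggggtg

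The set also holds Psmc3ip, which takes part in meiotic recombination and is in the set by its symbol only. It lay at 2.19 and 4.20 CPM in Altre-WT and 3.06 and 0.85 CPM in Altre-KO and was not tested.

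Proteasome genes are known to be raised together by the factor Nfe2l1, which reads antioxidant response elements, and many carry sites for NF-Y, GABP and NRF1. The members' promoters were searched for such letters on both strands, over 250 bases before and 50 after the start. They come from the RefSeq promoters for GRCm38.p6, which matched 39 of the 47 genes. The motif TGACNNNGC was found in 6 (15.4%), against 17.2% of the 8063 tested genes with an entry and 14.0% of all promoters. CCGGAAG, the letters read by GABP and other ETS factors, was found in 15 (38.5%), against 22.5% and 9.93%. It occurred in 5 of 8 base and 4 of 6 lid promoters, in 1 of 7 alpha promoters and in 0 of 5 beta promoters. GCGCANGCG, read by NRF1, was found in 7 (17.9%), against 16.9% and 7.03%. CCAAT, read by NF-Y, was found in 14 (35.9%), against 42.9% and 41.1%, with 5 of the 14 in the alpha ring. TTTCNNTTT, a core of interferon response elements, was found in 6 (15.4%), against 9.69% and 12.1%, Psme1 among them. These are matches of letters, not shown to be bound, and no test was made. The catalytic genes Psmb5 and Psmb6 and the lid genes Psmd6 and Psmd14 are shown, from 150 bases before the RefSeq start, with TGACNNNGC (Psmb5, Psmb6), CCGGAAG (Psmd6) and GCGCANGCG (Psmd14) in capitals. The last match is on the reverse strand, and bases inside the GENCODE transcript are left out beyond the motif.
Psmb5, chr14:54618023-54618145, minus strand: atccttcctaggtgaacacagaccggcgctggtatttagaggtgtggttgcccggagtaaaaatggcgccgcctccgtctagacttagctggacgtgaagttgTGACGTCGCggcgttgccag
Psmb6, chr11:70525207-70525356, plus strand: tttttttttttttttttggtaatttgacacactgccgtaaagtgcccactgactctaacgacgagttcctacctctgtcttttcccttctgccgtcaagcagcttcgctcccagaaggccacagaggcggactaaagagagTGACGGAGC
Psmd6, chr14:14120984-14121095, minus strand: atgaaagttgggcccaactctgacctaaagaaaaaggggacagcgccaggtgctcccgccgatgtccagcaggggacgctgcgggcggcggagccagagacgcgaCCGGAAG
Psmd14, chr2:61711544-61711693, plus strand: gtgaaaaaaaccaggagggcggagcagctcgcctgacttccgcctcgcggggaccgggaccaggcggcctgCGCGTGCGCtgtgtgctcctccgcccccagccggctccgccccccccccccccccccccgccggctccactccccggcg

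The regulators showed no genotype difference past the test either. Of 18 genes known for proteasome gene control, 0 passed with limma, 0 at an unadjusted p of 0.05, 9 lay above 0 and 9 below, and the median was 0.00. Nfe2l1 was at 104 and 103 CPM in Altre-WT and 87.3 and 102 CPM in Altre-KO (log2 fold change -0.14, 95% interval -0.52 to 0.25). Maff, a small partner of Nfe2l1, was at 14.2 and 13.0 CPM in Altre-WT and 6.12 and 9.31 CPM in Altre-KO (log2 fold change -0.77, limma unadjusted p = 0.0923). The DNA-binding NF-Y chain Nfya was at 50.85 and 58.0 CPM in Altre-WT and 34.0 and 52.9 CPM in Altre-KO (log2 fold change -0.35, and -0.04 without Altre-KO replicate 1). In Altre-KO replicate 1 Nfya, Nfe2l1, Maff, Vcp, Syvn1 and Stat3 were lowest of the 4 libraries. The other NF-Y chains, Nfyb and Nfyc, and the regulators Gabpa, Nrf1, Keap1 and Foxo4 were highest there. Over all tested genes that library was lowest for 25.8% and highest for 30.7%, and no pattern among the regulators was tested. For Nfyc the lead was slight, 24.19 CPM against 24.06 CPM in Altre-WT replicate 1. For Nrf1 it was 120.6 CPM against 118.1 CPM in Altre-WT replicate 2. Nfyb was at 57.4 and 57.2 CPM in Altre-WT and 75.0 and 52.5 CPM in Altre-KO. Gabpa was at 125 and 130.3 CPM in Altre-WT and 143 and 116 CPM in Altre-KO. Nfyb, Nfyc, Gabpa, Nrf1, Vcp, Syvn1, Stat3, Keap1 and Foxo4 were named after their values were seen.

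Partner proteins carry other names. Of 22 tested subunits, docking and shuttle factors, 0 passed with limma, 0 at an unadjusted p of 0.05, 13 lay above 0 and 9 below, with a median of 0.02. Adrm1, a ubiquitin receptor of the base, was at 14.2 and 18.1 CPM in Altre-WT and 11.02 and 11.01 CPM in Altre-KO (log2 fold change -0.50, limma unadjusted p = 0.21). The shuttle factor Ubqln2 was at 27.9 and 22.3 CPM in Altre-WT and 12.55 and 24.98 CPM in Altre-KO, an overlap. Pomp, the chaperone that completes barrel assembly, was at 44.8 and 60.1 CPM in Altre-WT and 61.2 and 47.8 CPM in Altre-KO (log2 fold change 0.06). Of 15 genes of ubiquitin supply and the p97 segregase, 0 passed with limma, 0 at an unadjusted p of 0.05, 7 lay above 0 and 8 below, with a median of -0.05. The polyubiquitin gene Ubb was at 945 and 846 CPM in Altre-WT and 865 and 777 CPM in Altre-KO. Ubxn4, a p97 adaptor, was at 157 and 127 CPM in Altre-WT and 174 and 155 CPM in Altre-KO.

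In the authors' deposited table of their own comparison, 3 genes had an adjusted p under 0.05 and none of the 47 was among them. There the smallest unadjusted p of a proteasome gene was 0.169, and the authors' deposited table gave all 47 an adjusted p of 1.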

How the data were processed

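RNA was sequenced from liver Tregs of 2 genotypes, 2 libraries each; per the labels' protocols, an RNeasy Micro kit served for extraction and a SMARTER kit for the libraries. STAR, cutadapt, DESeq2 and build mm10 are named per the submitters' processing notes. What each did, which versions, counter and annotation were used is not given in the sources used here. Per library, the deposited table holds RPM with 0.0001 added (read from the values) and, per the file headers, CPM. It also holds the authors' mean signal in CPM per genotype, the log2 of their ratio, and p-values from a test the file headers do not name. All levels here are the deposited CPM; the RPM served only to estimate reads. Estimated reads were not whole for all genes, so the main test used CPM and no test of whole counts was made. Estimated reads entered a test only in the limma-voom alternative.

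A gene was tested if 10 estimated reads, taken at the median depth (4.22 CPM), were reached in 2 or more libraries. limma 3.58.1 (R 4.3.3), with a mean-variance trend on log2(CPM + 1), was fitted over all 10486 tested genes on genotype alone, two-sided, with Benjamini-Hochberg adjustment and a threshold of 0.05; it was tested on simulated data. A log2 fold change on this scale understates the change of low genes. Precision is set by 2 libraries per genotype; the limit that a count of 0 allows is 3 reads.

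The members and lists were chosen with earlier results of these data known. Named by rule are, per class, the genes of highest and lowest mean CPM and the 2 of smallest p, the catalytic subunits, members under the filter, Nfe2l1, Pomp and, per list, the 2 of smallest p; others were named for their role or sequence after their values were seen. All 47 symbols matched GENCODE M21 (GRCm38), from which positions and lengths come. Copies were searched with blastn 2.17.0 and figures drawn with matplotlib 3.10.9. Alternatives changed the scaling, the pseudocount, the filter, the threshold, the test (limma-voom on estimated reads), the design (a replicate block), the libraries (each left out once) and the length behind shares.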

Additional observations from a re-analysis of the deposited data

How the results depend on the processing

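No proteasome gene passed the test under any of the 14 alternatives to the main analysis. The count over all genes was 4, and 2 with a pseudocount of 0.1; leaving out 1 library gave 6 to 16. Leaving out 1 library moved the median over the 43 genes (main value 0.05) from -0.16 to 0.26, and the class medians from -0.21 to 0.34 for the alpha ring, -0.13 to 0.22 for the lid, -0.11 to 0.033 for the activators and -0.095 to 0.16 for the assembly factors. The lowest value was that without Altre-KO replicate 1 in each. A filter at a mean of 20 CPM moved the assembly median from 0.05 to 0.13. Under other scalings, pseudocounts, filters and limma-voom, between 0 and 2 of the members changed sign, and under scaling the median of all genes moved by less than 0.1.

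Shares depend on length. Per kilobase of the longest transcript they were 17.8% (alpha ring), 21.4% (beta ring), 21.4% (base), 13.1% (lid), 9.85% (activators) and 11.3% (Psme2b and Psmc3ip). Per kilobase of the longest coding transcript, chosen after seeing the data, they were 16.9%, 21.7%, 21.1%, 12.1%, 13.3% and 10.1%. In CPM the last was 5.61%.

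With the replicate block, 6 genes passed over all and 0 of the proteasome genes. The labels give same-numbered libraries only a number in common, and whether they share a batch is not recorded there. Across genes, the difference of replicate 1 minus 2 correlated at -0.01 between genotypes over all tested genes and at 0.29 over the 43 members. These correlations cannot tell whether a batch was shared.

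Depth limits the low genes: Psma5, Psma8, Psmb11 and Psmc3ip, under the filter, allow no comparison.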
